A study of Saccharomyces cerevisiae with 4 samples.

Results

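Chromosome XII of budding yeast carries the ribosomal DNA (rDNA) on its right arm, and the BrdU profile of its arms on both sides of that repeat array is described here peak by peak in *rif1Δ* and *WT* cells held in hydroxyurea (HU). The region is set by coordinates of genome release R64, and its rule uses no measured value, though it was picked with earlier results of these data known: 20000 to 130900 for the left arm, 171000 to 449999 for the right arm before the rDNA, 491001 to 1058100 for the right arm after it, and the 41 kb between these right arm stretches for the interval that holds the rDNA. The chromosome ends and the surroundings of the centromere were left out. These coordinates held 19960 of the 243150 bins of 50 bp in the profile, of which 2218 lay in the left arm, 5580 in the right arm before the rDNA, 820 in the rDNA interval and 11342 in the right arm after it. In them, 30 peaks of BrdU signal were found on the arms and 2 in the rDNA interval, against 312 on the arms of the other 15 chromosomes.

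The profile came from 4 BrdU-IP-Seq libraries, 2 of *rif1Δ* and 2 of *WT* cells. Both strains derive from W303 *MATa* with *bar1Δ* and a *LEU2::BrdU-Inc* cassette, which lets cells take up and use BrdU, and the *rif1Δ* strain also has *RIF1* replaced by KanMx. Cells were arrested in G1 with 7.5 nM α-factor for 4 h, then released at 23 °C with pronase at 200 µg/mL into 0.2 M HU and 400 µg/mL BrdU and collected after 45 min. The profile holds 1 column per strain, the authors' mean of the 2 replicates, so no value below has a replicate error, no difference between strains could be tested, and the number of reads behind a bin is unknown.

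DNA made in the presence of BrdU, an analog of thymidine, can be pulled down with an antibody. HU lowers the supply of deoxyribonucleotides, so that forks from origins that fire early stall close to where they started, while the checkpoint holds back origins that would fire later. Rif1 is a chromatin protein first known from telomeres that also delays many origins. The rDNA is a long tandem array of rRNA genes, each unit with its own origin and a barrier that stops forks moving against rRNA transcription, and the reference sequence shows only a few of its many copies.

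Over all bins of the profile the mean signal was 14.67 in *rif1Δ* and 14.66 in *WT* cells, and the medians were 3.50 and 3.63. The 99th percentile was 249 in *rif1Δ* and 254 in *WT* cells, and after sorting, the values of the columns differed by 0.264 on average. With columns so alike in distribution, no comparison of total BrdU was made. Over *RIF1* itself (YBR275C, chromosome II, 751356 to 757106) the signal was 0.433 in *rif1Δ* and 3.09 in *WT* cells, beside flanks of 10 kb with medians of 3.88 and 3.13.

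A peak was a bin that was the highest within 2 kb on either side and reached 20 in at least 1 strain, and it counted as present in a strain whose highest bin within 1 kb of it reached 20. Peak signal was averaged over the bins up to 500 bp from the apex. The change was taken as log2 of (*rif1Δ* + 1)/(*WT* + 1), on which weak peaks appear less changed than their plain ratio. A peak is called higher or lower in *rif1Δ* cells here where this value lay above 1 or below -1, which is a fold threshold and not a test. Peaks were found from the same values that are compared, so a peak with little *WT* signal had to be higher in *rif1Δ* cells to be found at all.

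Of the 30 arm peaks of chromosome XII, 13 were higher in *rif1Δ* than in *WT* cells, or 43.3%, where 40.4% of all 342 arm peaks of the genome were. At 3 peaks (10%) the signal was lower in *rif1Δ* cells, where 7.89% of all arm peaks were. The other 14 differed by less than the threshold and are called level below. By presence, 11 peaks (36.7%) reached 20 in *rif1Δ* cells only, against 34.8% of all arm peaks, 3 (10%) in *WT* cells only, against 11.1%, and 16 in both strains. These shares lay near those of the genome, but the changes were spread unevenly along the chromosome, as the profiles by distance from the centromere show.

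**Figure D1:**
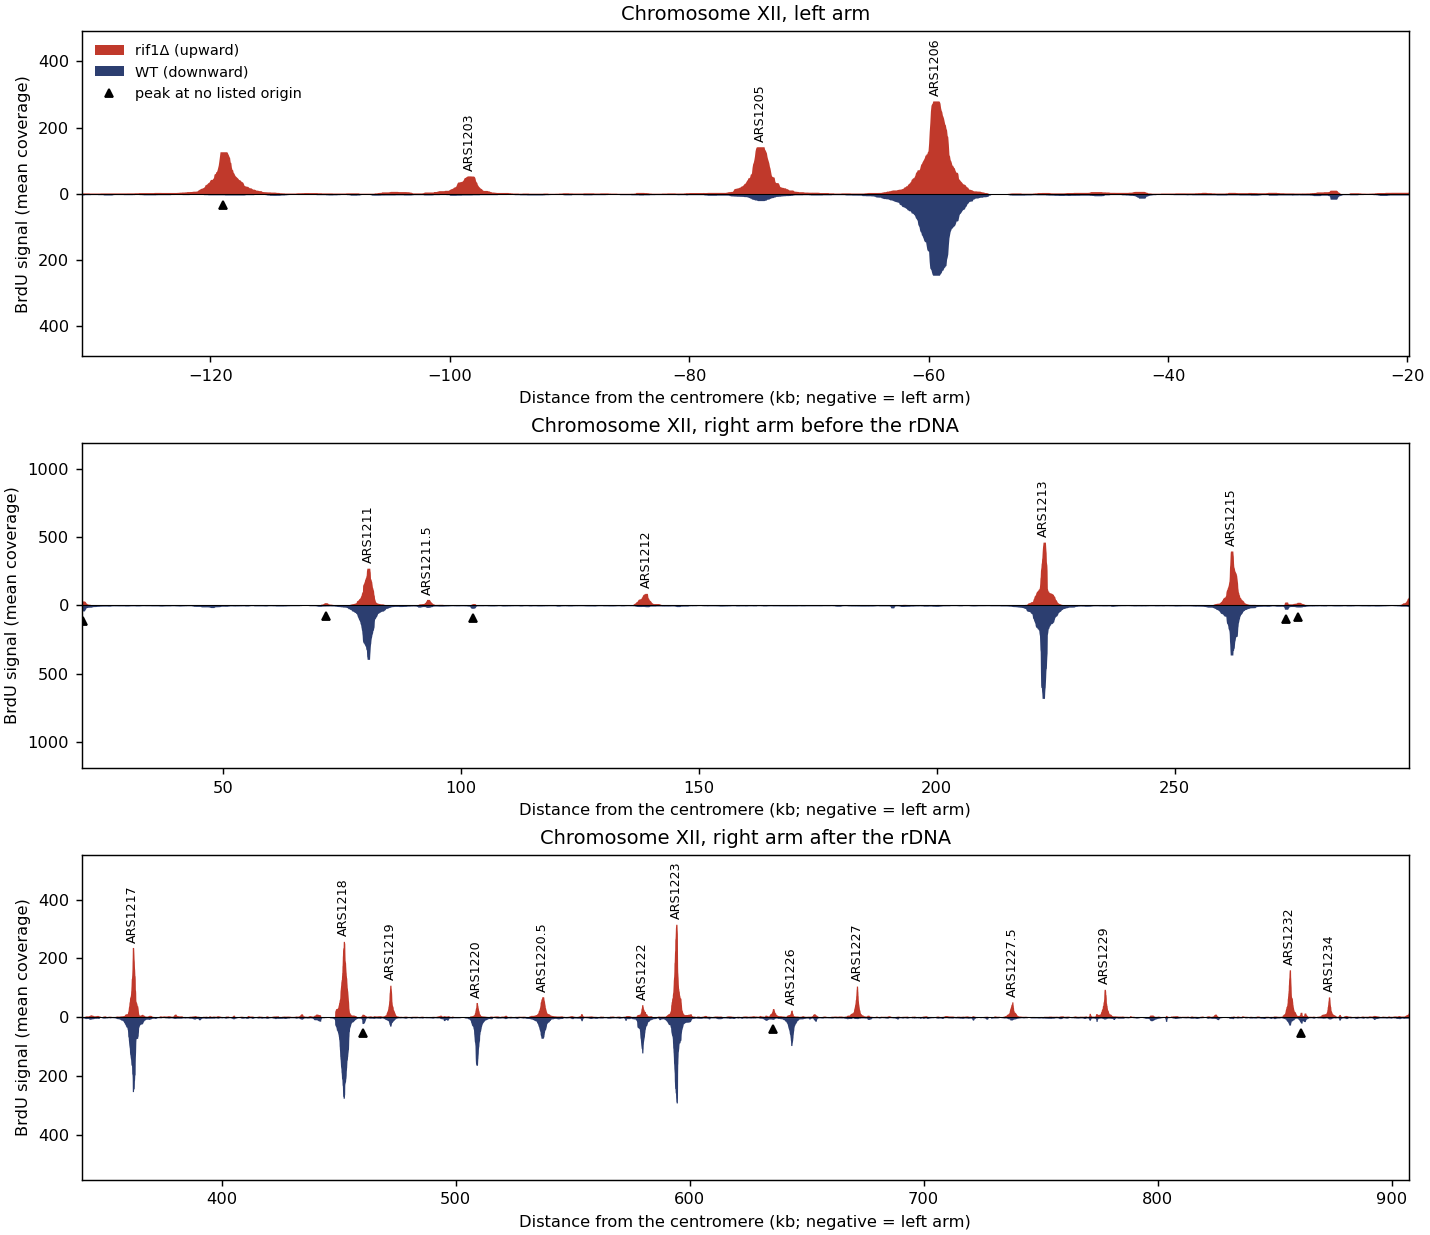
BrdU signal (mean coverage) in *rif1Δ* (upward, red) and *WT* cells (downward, blue) along the left arm, the right arm before the rDNA and the right arm after it, against distance from the centromere in kb, with each panel on its own scale. Names mark peaks at listed origins and triangles peaks at none. The 3 left arm peaks farthest from the centromere and most of those near the right end of the last panel stood mainly above the axis, while *ARS1220*, *ARS1222* and *ARS1226* stood mainly below it.

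The left arm had the largest ratio of the 3 arm stretches. Its mean signal was 15.01 in *rif1Δ* and 10.2 in *WT* cells, a ratio of 1.47, and 29 of the 30 arms of the other chromosomes had a lower one. Before the rDNA the mean was 13.3 in *rif1Δ* and 16.7 in *WT* cells, a ratio of 0.794 with only 2 of the 30 other arms below it. After the rDNA it was 9.56 in *rif1Δ* and 10.2 in *WT* cells, a ratio of 0.933 with 12 of the 30 below. The other 30 arms ran between 0.756 and 1.60 with a median of 0.977, so all 3 stretches of chromosome XII fell inside the range of single arms elsewhere.

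With a height of 20, more peaks were counted in *rif1Δ* cells in each stretch. The left arm had 4 peaks in *rif1Δ* and 2 in *WT* cells, the right arm before the rDNA 9 and 6, and the right arm after it 14 and 11. Per 100 kb this made 3.61, 3.23 and 2.47 peaks in *rif1Δ* cells, against 1.80, 2.15 and 1.94 in *WT* cells, beside medians of 2.83 and 2.10 over the other 30 arms. In *rif1Δ* cells 13.3% of left arm bins reached 20, against 6.54% in *WT* cells, while the shares were 9.05% and 9.52% before the rDNA and 7.41% and 7.71% after it. The excess of peaks depended on the height asked for: with a height of 10, the strains had 10 peaks each before the rDNA and 24 each after it. A height of 40 gave 5 peaks in *rif1Δ* and 3 in *WT* cells before the rDNA, and 12 and 7 after it. On the left arm a height of 10 gave 5 peaks in *rif1Δ* and 4 in *WT* cells, and one of 40 gave 4 and 1.

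On the left arm, 3 of the 4 peaks were higher in *rif1Δ* cells and the fourth was nearly level. The peak at 31825, between *YCT1*, which encodes a cysteine transporter, and the uncharacterized gene YLL054C, lies at no origin in the study's list of origins. Its signal was 116.6 in *rif1Δ* and 3.32 in *WT* cells, a log2 ratio of 4.77 that was the highest of all 342 arm peaks. The *WT* column never rose above 3.63 within 1 kb of it, while the *rif1Δ* column stayed at 20 or more for 3750 bp. The flanking genes there are transcribed towards each other.

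*ARS1203* (51860 to 52210), with its apex inside *ATG10*, a gene for an E2-like enzyme of autophagy, had a signal of 51.6 in *rif1Δ* and 3.49 in *WT* cells. Its log2 ratio was 3.55, and *WT* cells again had no peak there. *ARS1205* (76711 to 77163), inside YLL032C, had 137 in *rif1Δ* and 19.8 in *WT* cells, a log2 ratio of 2.74. This was the smallest change of the 3, at the only 1 of them with a peak in *WT* cells.

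*ARS1206* (91417 to 91659) lies between *HSP104*, the gene of a chaperone that dissolves protein aggregates, and a tRNA gene. Its signal was 270.2 in *rif1Δ* and 241 in *WT* cells, a log2 ratio of 0.16. For shares of signal, each stretch was cut into pieces between neighboring peaks, where the summed signal of both strains was lowest. A piece thus includes the low signal around its peak. The piece with *ARS1206* held 49.1% of the left arm's signal in *rif1Δ* cells, against 80.3% in *WT* cells. The *WT* left arm thus held 1 dominant peak, whereas the *rif1Δ* left arm shared its signal among 4. The neighboring *ARS1206.5* (93166 to 93659) had no apex of its own, lying 1791 bp from that of *ARS1206*, and had a signal of 46.0 in *rif1Δ* and 63.8 in *WT* cells.

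**Figure D2:**
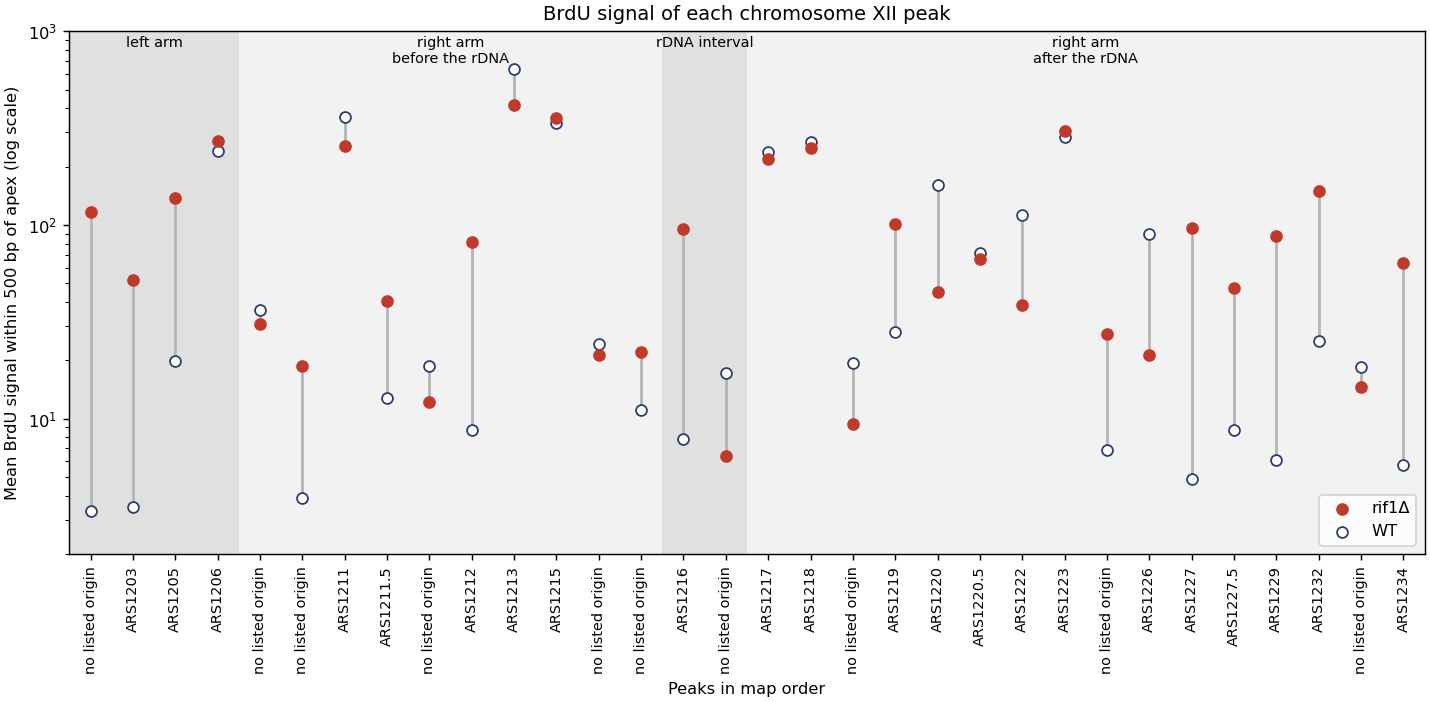
Mean BrdU signal within 500 bp of the apex (log scale) in *rif1Δ* (filled red) and *WT* cells (open blue) at each of the 32 peaks of chromosome XII, in map order and shaded by stretch, with a grey line joining the strains. Points for peaks with *WT* signal above 200 nearly coincide or stand slightly lower in *rif1Δ* cells, and the long lines mark peaks such as *ARS1227* (96.3 and 4.89) and the leftmost peak (116.6 and 3.32).

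The right arm before the rDNA was led by 3 strong peaks, of which a pair had less signal in *rif1Δ* cells. *ARS1213* (373156 to 373400), between *HOG1*, the gene of the osmotic stress kinase, and a tRNA gene, had 418 in *rif1Δ* and 640.1 in *WT* cells. The *WT* value was the highest of all 342 arm peaks, and the log2 ratio was -0.61. *ARS1211* (231179 to 231422), between *NFG1* and the thioredoxin gene *TRX1*, had 256 in *rif1Δ* and 362 in *WT* cells, a log2 ratio of -0.50. *ARS1215* (412668 to 412897), between the pyruvate decarboxylase gene *PDC5* and *SLX4*, which encodes a scaffold for DNA repair nucleases, had 357 in *rif1Δ* and 335 in *WT* cells, a log2 ratio of 0.09. Both of the lower values stayed within the fold threshold, and the order changed, since *ARS1215* stood above *ARS1211* in *rif1Δ* cells and below it in *WT* cells. Together the pieces with these 3 peaks held 74.9% of the stretch's signal in *rif1Δ* cells, against 86.0% in *WT* cells.

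Of the 7 weaker peaks of this stretch, 3 were higher in *rif1Δ* cells. *ARS1212* (289220 to 289469), between *EMP46*, which encodes a cargo receptor of the early secretory pathway, and the galactose permease gene *GAL2*, had 81.5 in *rif1Δ* and 8.72 in *WT* cells, a log2 ratio of 3.09. *ARS1211.5* (243527 to 243960), beside the ribosomal protein gene *RPS0B*, had 40.3 in *rif1Δ* and 12.8 in *WT* cells, a log2 ratio of 1.58. Both were absent as peaks from *WT* cells. The peak at 222275, next to the seripauperin gene *PAU23*, only just passed the height rule with a highest bin of 20.4 in *rif1Δ* cells, and it had 18.7 in *rif1Δ* and 3.89 in *WT* cells.

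The other 4 lay at no listed origin and stayed within the threshold. The peak at 171275, beside *GAT3*, which encodes a GATA-type zinc finger protein, lies at the edge of the stretch and had 30.9 in *rif1Δ* and 36.5 in *WT* cells. The peak at 253175, between *SPT8*, a subunit gene of the SAGA complex, and the sterol desaturase gene *ERG3*, had 12.1 in *rif1Δ* and 18.7 in *WT* cells and reached 20 in *WT* cells only. Near *ARS1215* stood a pair of small peaks. The peak at 424275 in *RRN5*, whose product helps RNA polymerase I start on the rDNA, had 21.2 in *rif1Δ* and 24.2 in *WT* cells, and the peak at 426825 beside the proline oxidase gene *PUT1* had 22.1 and 11.1, a log2 ratio of 0.93 that fell just short of the threshold.

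The 16 peaks after the rDNA held all 3 lower calls of the arms, at 18.8% of this stretch's peaks, and 7 of the 13 higher ones. Their log2 ratios ran between -2.03 and 4.05 around a median of -0.0004, so the median hid changes in both directions. The first pair beyond the rDNA was level between the strains. *ARS1217* (512868 to 513117), inside YLR177W, had 218 in *rif1Δ* and 238 in *WT* cells, and *ARS1218* (602938 to 603155), beside *CDC42*, the gene of the GTPase that sets cell polarity, had 249 and 268. *ARS1223* (744942 to 745179), between *UBC12*, which encodes the conjugating enzyme for the ubiquitin-like protein Rub1, and the chitin deacetylase gene *CDA1*, had 304 in *rif1Δ* and 283 in *WT* cells. With *ARS1223* the highest in both strains, these 3 kept their order. The pieces with them held 45.2% of the stretch's signal in *rif1Δ* and 51.9% in *WT* cells.

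The 3 lower peaks were all of middle height in *WT* cells. *ARS1226* (794020 to 794269), between a tRNA gene and the snoRNA gene *SNR61*, had 21.3 in *rif1Δ* and 90.03 in *WT* cells, a log2 ratio of -2.03. *ARS1220* (659823 to 660072), in YLR257W, had 45.1 in *rif1Δ* and 161 in *WT* cells, a log2 ratio of -1.81. *ARS1222* (730275 to 730832), between the exoglucanase gene *EXG1* and *HRI1*, had 38.5 in *rif1Δ* and 112 in *WT* cells, a log2 ratio of -1.52. All 3 remained peaks in *rif1Δ* cells, but their stretches of bins at 20 or more were short there, at 750, 1800 and 1600 bp, against 4100, 4900 and 4550 bp in *WT* cells. *ARS1220.5* (687249 to 687738), which lies between *ARS1220* and *ARS1222* beside the condensin subunit gene *YCS4*, had 66.3 in *rif1Δ* and 71.3 in *WT* cells. The lower values therefore alternated along the map with level ones, and *ARS1222* lay only 14.55 kb from the level *ARS1223*.

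Between the rDNA and *ARS1226*, 2 peaks were higher in *rif1Δ* cells. *ARS1219* (622672 to 623123), in the lipid homeostasis gene *ARV1*, had 101.2 in *rif1Δ* and 28.0 in *WT* cells, a log2 ratio of 1.82. The peak at 786525, in *REC102*, a gene needed for meiotic DNA breaks, lies 7.75 kb from *ARS1226* and had 27.4 in *rif1Δ* and 6.85 in *WT* cells. Neighbors thus went opposite ways, with 1.86 at this peak and -2.03 at *ARS1226* on the log2 scale. The peak at 611075, in the topoisomerase gene *TOP3*, reached 20 in *WT* cells only and had 9.32 in *rif1Δ* and 19.3 in *WT* cells, a log2 ratio of -0.97 just inside the threshold.

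Past *ARS1226*, nearly every peak was higher in *rif1Δ* cells. *ARS1227* (821907 to 822336), in *CIS1*, had 96.3 in *rif1Δ* and 4.89 in *WT* cells, a log2 ratio of 4.05. *ARS1229* (928051 to 928540), between *SFP1*, which encodes an activator of ribosome production genes, and the seipin gene *SEI1*, had 88.0 in *rif1Δ* and 6.13 in *WT* cells, a log2 ratio of 3.64. *ARS1234* (1023967 to 1024207), between *ECM7* and *GMC2*, had 63.5 in *rif1Δ* and 5.73 in *WT* cells, a log2 ratio of 3.26. *WT* cells had no peak at any of these 3.

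*ARS1227.5* (888569 to 888810), between *SMC6*, a subunit gene of the Smc5/6 complex, and the Elongator gene *IKI3*, was also a peak of *rif1Δ* cells only, with 47.1 in *rif1Δ* and 8.68 in *WT* cells. *ARS1232* (1007180 to 1007470), between *TSR2* and *ECM30*, had 149 in *rif1Δ* and 25.3 in *WT* cells, a log2 ratio of 2.52, and was the strongest peak of this outer stretch in both strains. The exception was the peak at 1012225, between *DIF1*, which regulates ribonucleotide reductase, the enzyme that HU blocks, and the arginine catabolism gene *CAR2*. It had 14.5 in *rif1Δ* and 18.5 in *WT* cells and barely reached 20, with a highest *WT* bin of 20.1. Of the listed intervals here without a name, 1052304 to 1059304 had no peak, with a signal of 3.86 in *rif1Δ* and 3.79 in *WT* cells at its middle, and 1016304 to 1023304 lay beside *ARS1234*.

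The right arm after the rDNA can be split at *ARS1226*, a division placed after the values were seen, at the last lower peak, so that no lower peak could lie beyond it. From the rDNA to 795275 the mean signal was 11.8 in *rif1Δ* and 15.7 in *WT* cells, a ratio of 0.752, and of 10 peaks 2 were higher, 3 lower and 5 level. From 795276 to the end of the stretch the mean was 6.91 in *rif1Δ* and 3.89 in *WT* cells, a ratio of 1.78, and of 6 peaks 5 were higher and 1 was level. Bins at 20 or more made up 5.35% of the outer 262.8 kb in *rif1Δ* and 1.03% in *WT* cells. Over the 16 peaks of the stretch the log2 ratio and the distance from the centromere had a Spearman correlation of 0.51, over the 26 peaks of both right arm stretches 0.28, and over all 30 arm peaks 0.06. These peaks share 1 profile, so the correlations are descriptions only.

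Distances between neighboring peaks were also taken with a height of 20. In *WT* cells the longest stretch without a peak ran 213.05 kb between *ARS1226* and *ARS1232*, and it held 3 peaks in *rif1Δ* cells. More than 5 kb inside its ends the highest bin was 106.0 in *rif1Δ* and 14.4 in *WT* cells, and the medians were 3.0 and 3.13. On the arms of the other chromosomes the longest such distance was 155.8 kb in *rif1Δ* and 201.95 kb in *WT* cells. The second long stretch of *WT* cells, 120.0 kb between the peak at 253175 and *ARS1213*, held *ARS1212* in *rif1Δ* cells.

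In *rif1Δ* cells the longest distance on chromosome XII was 90.1 kb, between *ARS1217* and *ARS1218*, where neither strain had a peak. Its inner bins averaged 3.60 in *rif1Δ* and 3.70 in *WT* cells. The median distance was 28.0 kb in *rif1Δ* and 32.4 kb in *WT* cells, beside 28.2 and 33.6 kb on the other arms. Between peaks the signal was low in both strains, though not always equal. Inner bins averaged 4.40 in *rif1Δ* and 7.32 in *WT* cells between *ARS1211* and *ARS1211.5*, and 3.05 and 5.46 between *ARS1222* and *ARS1223*. Between the peak at 31825 and *ARS1203* the order was the other way, with 3.67 in *rif1Δ* and 2.89 in *WT* cells. These differences were small beside those at the higher and lower peaks.

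**Figure D3:**
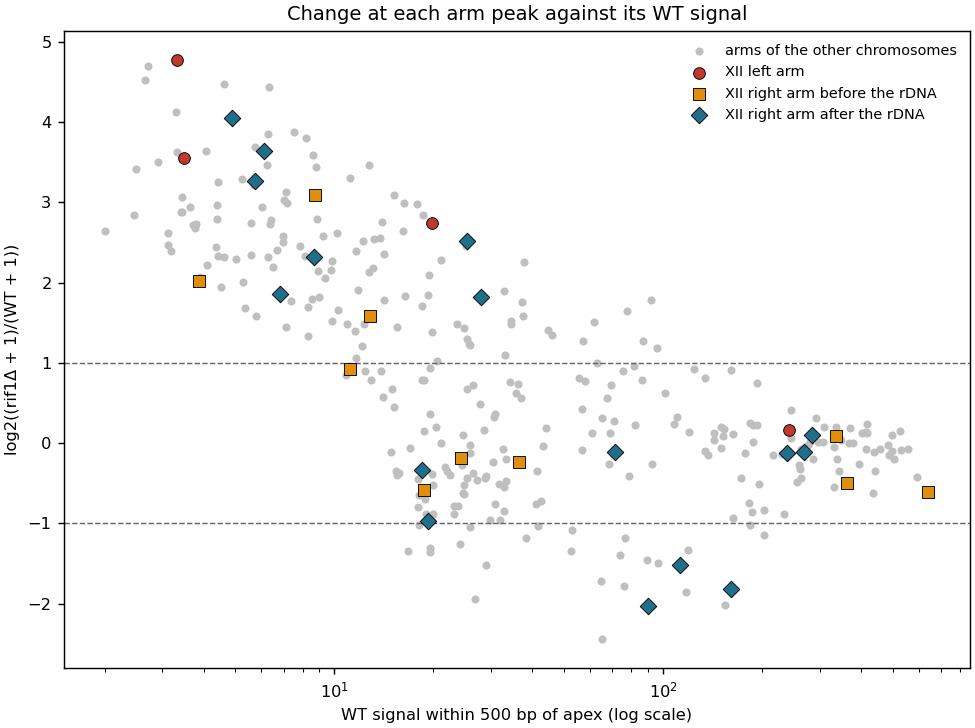
The log2 ratio of *rif1Δ* over *WT* signal, each plus 1, at each of the 342 arm peaks against its *WT* signal (log scale), with the chromosome XII stretches in color, other chromosomes in grey and dashed lines at 1 and -1. Chromosome XII peaks with weak *WT* signal reach up to 4.77, those with strong *WT* signal lie near 0, and *ARS1220*, *ARS1222* and *ARS1226* lie below -1 at intermediate *WT* signal.

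The groups of peaks differed in *WT* signal, which is also the denominator of the ratio, and peaks with little *WT* signal were found only through *rif1Δ* cells, so the pattern at low *WT* signal is partly set by the peak rule. The 13 higher peaks had *WT* signals between 3.32 and 28.0 with a median of 6.85, and *rif1Δ* signals between 18.7 and 149 with a median of 81.5. None reached the level of the strongest peaks in *rif1Δ* cells. The 3 lower peaks had *WT* signals between 90.03 and 161, and the 14 level peaks, between 11.1 and 640.1, overlapped both groups. The 8 peaks with a *WT* signal of 150 or more had a median log2 ratio of -0.12, beside -0.07 over the 75 such peaks of all arms, and 1 of the 8, *ARS1220*, was lower in *rif1Δ* cells. The pieces with the higher peaks held 50.9% of the left arm's signal in *rif1Δ* cells, against 19.7% in *WT* cells. Before the rDNA they held 12.5% and 4.18%, and after it 39.7% and 19.7%. The pieces with the lower peaks after the rDNA held 6.93% in *rif1Δ* and 19.7% in *WT* cells. These shares include low signal between peaks: the piece at 31825 held 5.63% of *WT* left arm signal without a *WT* peak.

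Peaks were narrower in *rif1Δ* cells. Of the 16 arm peaks present in both strains, 15 had a smaller width at 50% of the height in *rif1Δ* cells and 1, *ARS1213*, was 1450 bp wide in both. The median width was 1575 bp in *rif1Δ* and 2050 bp in *WT* cells, and the median difference was -450 bp. On the arms of the other chromosomes 150 of 169 such peaks were narrower in *rif1Δ* cells (88.8%), with a median difference of -400 bp, so the narrower shape was shared by the genome. Stretches at 20 or more were shorter in *rif1Δ* cells at 13 of the 16 peaks and longer at 3, *ARS1205*, *ARS1219* and *ARS1232*, which are the higher peaks among the 16. At *ARS1211*, for example, this stretch spanned 4400 bp in *rif1Δ* and 8400 bp in *WT* cells. On the arms of the other chromosomes such stretches were shorter in *rif1Δ* cells at 130 of 169 peaks, longer at 35 and equal at 4. The length of a stretch at a fixed height also depends on the height of its peak. The smoothing of the profile adds to all widths, and its part in them was not tested.

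**Figure D4:**
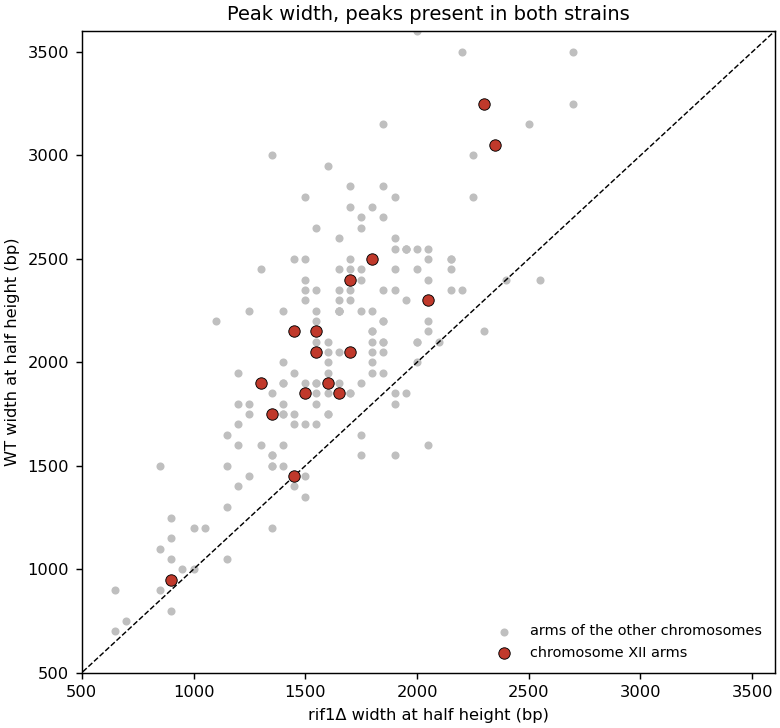
Width at 50% of the height in *rif1Δ* (horizontal, bp) against *WT* cells (vertical, bp) for peaks present in both strains, with the 16 of chromosome XII in red, other chromosomes in grey and a dashed line of equal widths; 3 grey peaks wider than 3600 bp in *WT* cells are not drawn. Of the red points, 15 lie above the line and 1 on it.

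The 30 arm peaks lay mostly between genes and mostly at listed origins. Apices fell between genes at 21 peaks (70.0%, beside 70.8% for the other arms), of which 13 had flanking genes in the same direction, 5 had genes transcribed towards each other and 3 had genes transcribed away from each other. On the other arms 221 apices fell between genes. Of these, 105 had flanking genes in the same direction, 65 towards each other and 51 away from each other. Among the 13 higher peaks, 8 lay between genes, 4 of them between genes transcribed towards each other and 4 between genes in the same direction, and 5 lay inside genes. On the other arms, 74 peaks of *rif1Δ* cells only lay between genes. Of these, 31 had genes transcribed towards each other, 31 in the same direction and 12 away from each other. The higher peaks are too few for their counts to set them apart. A listed origin was within 1 kb of the apex at 21 peaks (70.0%, beside 82.7% for the other arms). That list was made from peaks called in these same libraries, so the share is no independent evidence. Of the 9 peaks at no listed origin, 8 were weak, with *rif1Δ* and *WT* signals no higher than 36.5, and the ninth was the peak at 31825.

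The rDNA interval itself held very little signal in the profile, and its values have to be read against the lowest values found in the columns. The lowest value anywhere in the nuclear profile was 0.25 in *rif1Δ* and 0.125 in *WT* cells, and bins at these values have no order between strains. Of the 820 bins of the interval, 738 (90%) were at the lowest value in *rif1Δ* cells and 302 (36.8%) in *WT* cells. On the arms of chromosome XII this held for 518 of 19140 bins (2.71%) in *rif1Δ* cells and for 0 in *WT* cells. These counts use unequal cutoffs, and *WT* arm bins also went down to 0.25. At 1 or less there were 597 arm bins in *rif1Δ* and 320 in *WT* cells. In the interval, 91.8% of bins were at 1 or less in *rif1Δ* and 50.4% in *WT* cells. The longest run of bins at the column's lowest value covered 30000 bp in *rif1Δ* (451651 to 481650) and 15100 bp in *WT* cells (455001 to 470100).

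**Figure D5:**
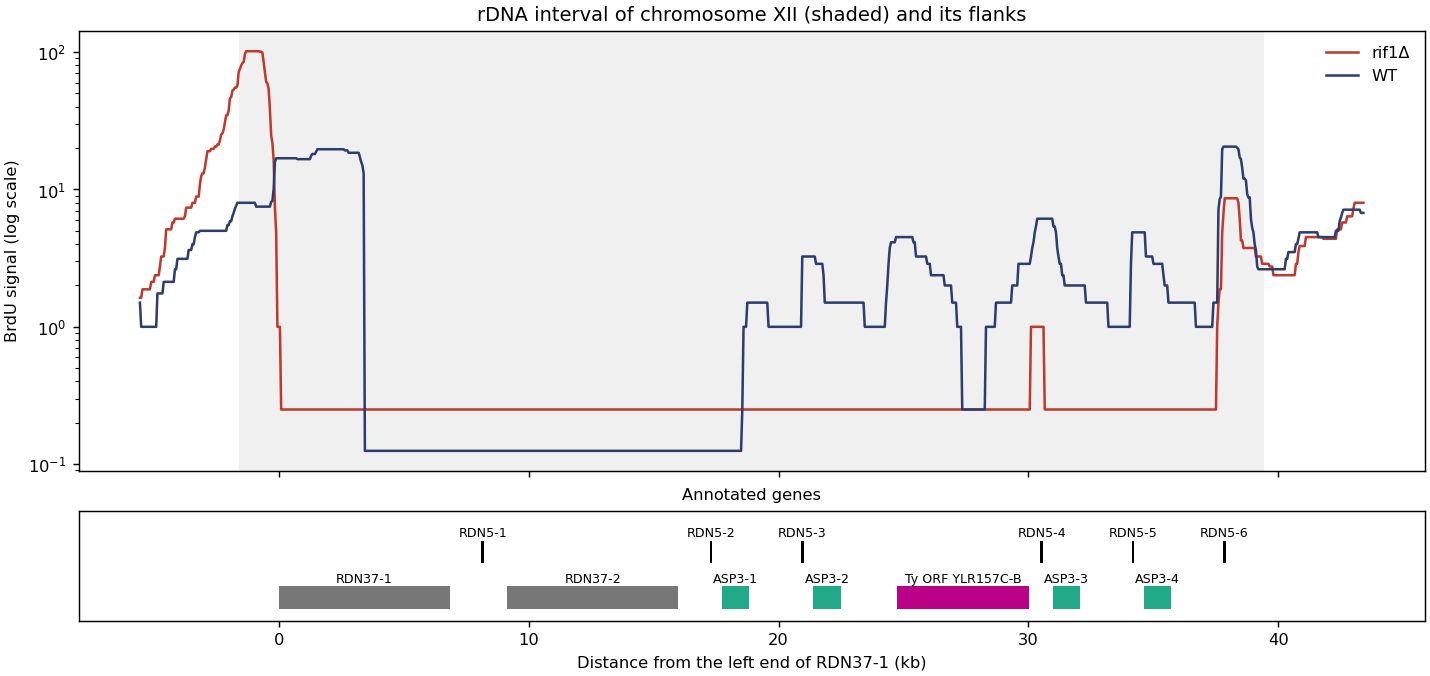
BrdU signal (log scale) in *rif1Δ* (red) and *WT* cells (blue) against distance in kb from the left end of *RDN37-1*, with the rDNA interval shaded and annotated genes below. The *rif1Δ* line peaks at 101.5 at *ARS1216*, just left of *RDN37-1*, and then lies at its lowest value of 0.25 over most of the interval, while the *WT* line stands at 13.1 to 19.6 over the start of *RDN37-1* and at its lowest value of 0.125 across *RDN37-2*.

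At the left edge of the rDNA, *ARS1216* (450485 to 450726) was a peak of *rif1Δ* cells only. Its signal was 94.9 in *rif1Δ* and 7.81 in *WT* cells, a log2 ratio of 3.44. It lies between a tRNA gene and the external spacer *ETS2-1* of the first rRNA unit. At its apex the single bin was 101.5 in *rif1Δ* and 8.0 in *WT* cells.

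The *ARS1216* peak was lopsided. On its left, away from the rDNA, the *rif1Δ* signal was 75.4 at 500 bp, 34.8 at 1000 bp and 13.1 at 2000 bp, against 8.0, 5.50 and 5.0 in *WT* cells. On its right it was 71.6 at 500 bp but 1.0 at 1000 bp and 0.25 at 1500 bp, against 7.50, 16.9 and 16.9 in *WT* cells. The *rif1Δ* signal thus dropped to near its lowest value close to the start of the annotated rDNA, at 451575.

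Inside the first unit the strains went the other way. The *WT* column stayed at 10 or more over an unbroken 3600 bp, 451401 to 455000, with a median of 18.1, where the *rif1Δ* median was 0.25. This run covers most of the 25S rRNA gene *RDN25-1* (451786 to 455181), whose mean was 0.25 in *rif1Δ*, the lowest value in each of its 69 bins, and 17.1 in *WT* cells. Over all of *RDN37-1* the mean was 0.261 in *rif1Δ* and 9.08 in *WT* cells. The 18S gene *RDN18-1*, the 5S genes *RDN5-1* and *RDN5-2*, the whole second unit *RDN37-2* and the spacers around it were at the lowest value in every bin of both strains. The first and second copies of the same 25S gene, *RDN25-1* and *RDN25-2*, thus had means of 17.1 and 0.125 in *WT* cells. How reads that match several places were assigned is not given in the sources used here, so these values do not measure BrdU in the rDNA array.

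Right of the rRNA units the reference holds 4 copies of *ASP3*, a gene for asparaginase, along with further copies of the 5S gene and a Ty retrotransposon. The *rif1Δ* column was at 0.25 in every bin of *ASP3-1*, *ASP3-2*, *ASP3-3* and *ASP3-4*, where the *WT* means were 0.424, 2.05, 2.84 and 2.74. The Ty gene YLR157C-B had 0.25 in *rif1Δ* and 2.09 in *WT* cells. Of the 5S copies in this cluster, *RDN5-5* had 0.25 in *rif1Δ* and 4.38 in *WT* cells, and *RDN5-4* had 1.0 and 6.13. R64 is the sequence of strain S288C whereas these strains derive from W303, and whether W303 carries each of these repeats was not tested.

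The second peak of the interval, at 489625 in YLR162W, was a peak of *WT* cells only. Its signal was 6.44 in *rif1Δ* and 17.1 in *WT* cells, a log2 ratio of -1.28, and it only just passed the height rule with a highest *WT* bin of 20.5. The last 5S copy, *RDN5-6*, lies beside it and had 7.19 in *rif1Δ* and 20.3 in *WT* cells. Beyond it both columns returned to the level of the arm, with medians of 4.50 in *rif1Δ* and 4.00 in *WT* cells over the next 10 kb.

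Over the whole interval the mean signal was 3.26 in *rif1Δ* and 3.43 in *WT* cells. The interval was cut between its 2 peaks where the summed signal of both strains was lowest. The piece with *ARS1216* held 86.0% of the interval's signal in *rif1Δ* cells, against 53.8% in *WT* cells. This piece also takes in the *WT* run over *RDN25-1*, so its *WT* share is not that of *ARS1216* alone. In *WT* cells the mean was 8.97 left of *RDN37-1*, at 450000 to 451574, and 17.1 over *RDN25-1*. The 2 annotated rRNA units averaged 0.254 in *rif1Δ* and 3.60 in *WT* cells, or 0.0226 and 0.296 times the strain's mean over the arms of chromosome XII. Similar means over the interval thus hid different profiles, with *rif1Δ* signal mostly at the left edge and *WT* signal over *RDN25-1*, the *ASP3* cluster and the right end.

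Runs of at least 1 kb with a signal of 1 or less also occurred on the arms, mostly at repeated genes. In *rif1Δ* cells there were 6 such runs with 29000 bp in all, against 7 runs with 9150 bp in *WT* cells. Shared places were *SSA2*, a chaperone gene with a close paralog, the Ty genes YLR035C-A, YLR227W-B and YLR410W-B, the surroundings of the Ty copy at *HAP1*, and a place within 976851 to 981550, where the gene table names no gene, and *WT* cells had a further run in *VAC14*. The run over YLR410W-B spanned 5900 bp in *rif1Δ* and 1150 bp in *WT* cells. The runs at these Ty genes were longer in *rif1Δ* cells, as was the longest run of the rDNA interval, and whether read assignment or scaling plays a part was not tested.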

How the data were processed

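The authors aligned paired reads of BrdU-IP-Seq with Bowtie2 to release R64, binned them in 50 bp bins, median-smoothed, quantile-normalized between replicates, then averaged the 2 replicates of each strain with a second smoothing. Each deposited value is thus a smoothed coverage signal, with 1 averaged column per strain and 0 other value columns, so read depth and replicate spread are unknown and no test between strains was made. The submitters' processing notes also name bedtools. Any scaling between strains is not given in the sources used here. Smoothing lowers and widens narrow peaks. Genes came from the R64 RefSeq table, with strand read from systematic names, and origin names and positions from the study's list of origins. Arms left out 20 kb at each end and 20 kb on each side of the centromere, placed between the innermost genes.

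Peaks, signals and calls followed the rules given with the results, on all 16 chromosomes alike. Every arm peak is named. Full values are given for the 4 highest, the 4 most raised and the 4 most lowered. The region, gene lists and rules were chosen with earlier results of these data known. Alternatives changed the height rule (10, 40), the apex window (1 or 4 kb), the signal window, the pseudocount (0.1, 10), the scale, the origins kept, the mean, and bins of 1 or less. Peak finding was tested on simulated data. Python 3.11.15, numpy 2.4.6, scipy 1.17.1, pandas 2.3.3 and matplotlib 3.10.9 were used.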

Additional observations from a re-analysis of the deposited data

How the results depend on the processing

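No paired analysis was possible because the deposited profile gives each strain as a single mean, and for the same reason no replicate could be left out. A log2 ratio counted as moved past 0.25, and a count past 1.5 times. With the median over bins in place of the mean, the log2 ratio was 0.24 for the left arm (0.51 for the mean), -0.68 for the rDNA interval (-0.06), -1.0 for the *ASP3* cluster (-1.27) and 0.15 for the 2 rRNA units (-1.87). The last changed sign because the median bin of both strains lay at the lowest value. Without bins at 1 or less the interval had 1.70. A pseudocount of 10 gave -0.41 for the rRNA units and -0.24 for the *ASP3* cluster. The left arm's median over peaks was 3.14, and became 1.43 with listed origins only, 2.25 with a pseudocount of 10 and 1.45 with a height of 10. With heights of 10 and 40, *WT* peaks were 4 and 1 on the left arm, 10 and 3 before the rDNA and 24 and 7 after it. In *rif1Δ* cells a height of 10 gave 10 before the rDNA and 24 after it, equal to *WT* cells, so that the larger count of *rif1Δ* peaks was lost there. A height of 40 gave 5 before the rDNA and 12 after it in *rif1Δ* cells, so that the larger count was kept. Among single arm peaks no ratio changed sign, 16 of 30 moved with a pseudocount of 10, and only the peak at 611075 changed its fold call, with a pseudocount of 0.1 and with the single bin at the apex.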
